A study of Mus musculus with 6 samples.

Results

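Synthesis of purine and pyrimidine nucleotides is described here through 10 genes, Prps1, Gart, Paics, Adsl, Atic, Impdh1, Impdh2, Dhodh, Umps and Uck2, chosen by gene symbol as enzymes of these pathways that do not themselves take nitrogen from glutamine. All 10 were among the 24054 gene symbols in the table and passed the filter on low counts, as 10975 genes did. The cells were TIBx, a mouse line whose cell type is given as liver BNL 1ME A.7R.1. They were compared in the parental genotype WT and in the genotype DNAJ-PKAc, called the FLC line in the sample titles. DNAJ-PKAc joins part of DNAJB1, a co-chaperone, to the protein kinase A catalytic subunit, and this fusion is known from fibrolamellar carcinoma (FLC) of the liver. Each genotype had 3 total RNA libraries, replicates A to C. Both lines were grown in DMEM with 10% serum, 2 mM added glutamine and 1 mM pyruvate.

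Cells build the purine ring atom by atom on phosphoribosyl pyrophosphate (PRPP), and the pathway ends at inosine monophosphate (IMP), from which AMP and GMP branch. The pyrimidine ring is built first, as orotate, and is joined to PRPP afterwards to give UMP. Dividing cells draw on both pathways for RNA and DNA, whereas resting cells can lean more on salvage of bases and nucleosides. Several steps take nitrogen from glutamine (Ppat, Pfas, Gmps, Cad and Ctps), and the 10 genes here cover steps around them. Uck2, a uridine-cytidine kinase, acts in salvage of a finished nucleoside and not in building a ring.

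The libraries held 8095549 to 9969590 expected counts each. Whether replicates were separate cultures is not stated, and p-values here measure only the spread between libraries, which may be technical. With 1 line per genotype, an effect of the fusion and a difference between lines cannot be told apart. Prkaca, which encodes the kinase part of the fusion, was higher in every DNAJ-PKAc library (95.7 to 131 CPM, counts scaled by TMM to a common library size) than in every WT library (63.6 to 87.6 CPM), with a log2 difference of 0.59 that missed the threshold (edgeR adjusted p = 0.154). DNAJ-PKAc C stood apart from A and B in its cell cycle genes, and WT B from the other WT libraries in its RNA makeup, with 2.66% of counts from the ribosomal precursor Rn45s against 0.912% to 1.05% in the other 5. DNAJ-PKAc C also differed in the nuclear noncoding RNA Malat1, at 4796 CPM against 1051 and 1151 CPM in A and B. Of 12 hepatocyte markers, 11, Alb and Hnf4a among them, had 0 counts in all 6 libraries, and Afp, a fetal liver gene, had 4 counts over WT and 183 over DNAJ-PKAc (edgeR adjusted p = 0.0252). The calls of Afp and of Krt8, an epithelial keratin, were lost when any 1 library but DNAJ-PKAc C was left out, and that of Krt8 also with the replicate block (adjusted p = 0.066). Of 7 cholangiocyte and epithelial markers 2 were tested, Krt8 (lower, adjusted p = 0.036 by edgeR) and Sox9 (0.0955, not called by edgeR but lower by DESeq2). Of 8 mesenchymal markers 6 were tested, Lrat had 0 counts, and Des had 8 counts over WT and 11 over DNAJ-PKAc. Vim, a mesenchymal filament gene, averaged 13128 CPM in WT and 11902 CPM in DNAJ-PKAc, and Acta2 9.28 and 42.2 CPM. Of the hepatocyte markers behind the liver label Afp alone had counts. Of 8 leukocyte markers 7 were in the table, 5 had 0 counts, and only Cd68 was tested (not called by edgeR, DESeq2 or limma-voom). Of 5 endothelial markers none reached the filter, and Cdh5, with 35 counts over WT and 13 over DNAJ-PKAc, was the most abundant.

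Over the 3 libraries of each genotype, none of the 10 genes passed the test. By edgeR's quasi-likelihood test with Benjamini-Hochberg adjustment over all genes tested, 0 rose and 0 fell at an adjusted p under 0.05, against 3.51% of all genes called in either direction (1.37% higher and 2.14% lower). Over all genes that is 150 higher and 235 lower, and 114 and 295 with upper-quartile scaling. At an unadjusted p under 0.05 by edgeR there were 2, Paics and Uck2, beside 2363 of the 10975 genes tested. That background also holds for the unadjusted counts of the other lists below. DESeq2 called 1, Uck2, beside 974 over all genes, and limma-voom called 0, beside 391. Of the 10 genes 7 had a fitted log2 difference (DNAJ-PKAc minus WT) above 0, as did 5917 of the 10975 genes tested. The median was 0.34, beside 0.05 over all genes tested. The libraries of the fusion line were not alike, however. In DNAJ-PKAc A and B, 7 of the 10 genes lay above all 3 WT libraries, as did 32.5% of genes tested, and in DNAJ-PKAc C 7 lay below all 3, as did 29.5%. For 5 genes, Prps1, Gart, Adsl, Dhodh and Umps, both held, against 7.88% of genes tested. These descriptions by library were chosen after the values were seen and carry no test. Set against the WT mean on the log2 scale, the median of the 10 genes was 0.53 in DNAJ-PKAc A, 0.59 in B and -0.34 in C.

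**Figure D1:**
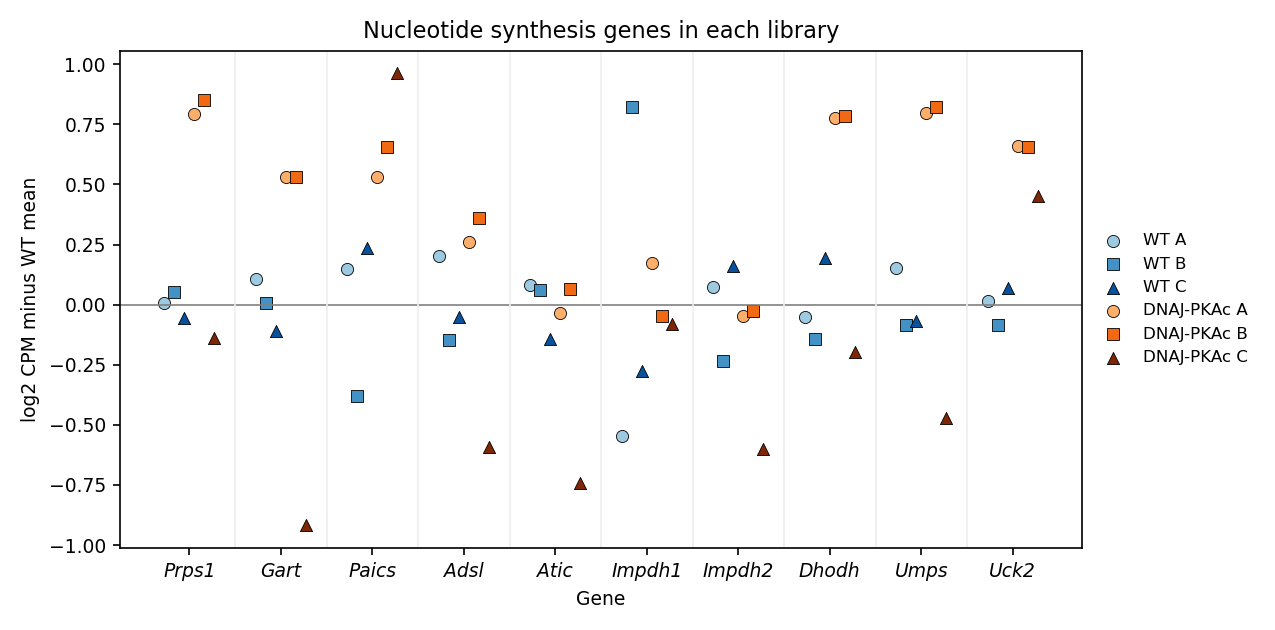
Each point is 1 library; the vertical axis is the log2 CPM of a gene minus its mean over the 3 WT libraries, for the 10 genes along the horizontal axis. DNAJ-PKAc A and B lie close together above WT for 7 genes, while DNAJ-PKAc C lies below all WT libraries for 7 and above them for Paics and Uck2 alone.

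Without DNAJ-PKAc C, 5 of the 10 genes rose and 0 fell, against 25.3% of genes called in that fit (14.3% higher and 11% lower). The 5 were Prps1, Gart, Dhodh, Umps and Uck2. Calls over all genes went from 385 to 2808 in the same step. No other library, left out alone, gave a call for any of the 10.

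**Figure D2:**
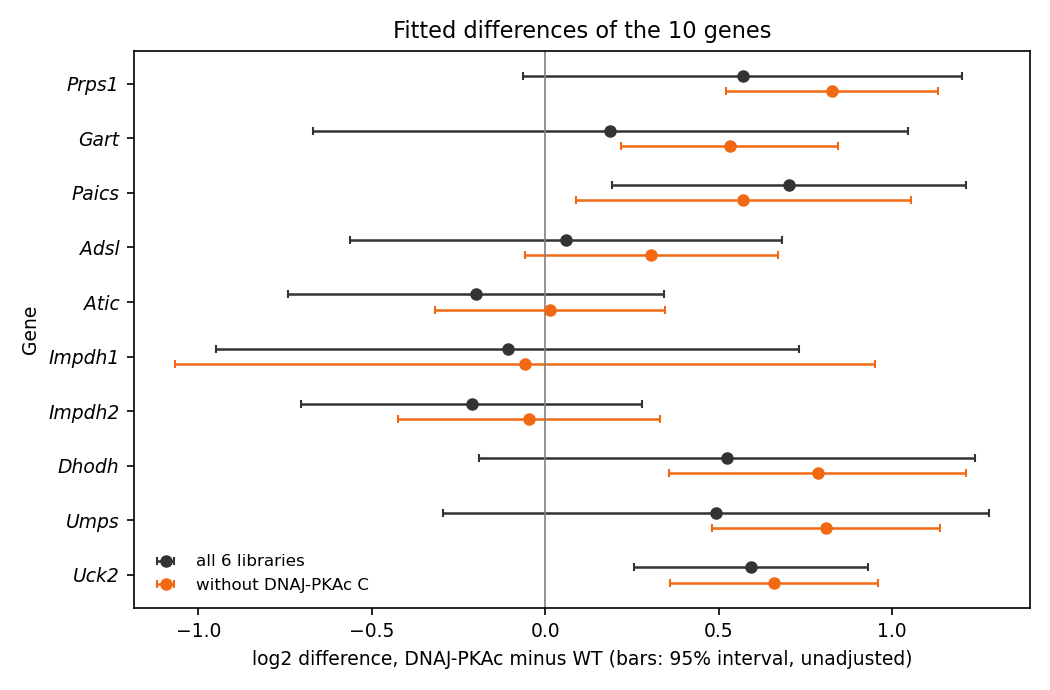
Fitted log2 differences, DNAJ-PKAc minus WT, with 95% intervals (not adjusted for the number of genes), from all 6 libraries in black and without DNAJ-PKAc C in orange. With all libraries the intervals of Paics and Uck2 lie above 0; without DNAJ-PKAc C those of Prps1, Gart, Dhodh and Umps do as well.

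The gene that supplies PRPP, Prps1 (chromosome X, 140456603 to 140476140, GRCm38.p6, as for all coordinates here), makes PRPP synthetase, whose product feeds purine, pyrimidine and salvage reactions. Prps1 measured 35.0, 36.1 and 33.5 CPM across WT libraries A to C, against 60.5, 63.0 and 31.6 CPM across fusion libraries A to C. The WT libraries were tight, DNAJ-PKAc A and B were far above them, and C was just below the lowest. The difference over 3 against 3 was a log2 value of 0.57 (SE 0.27, edgeR adjusted p = 0.265). Leaving out DNAJ-PKAc C gave 0.83 (SE 0.13, adjusted p = 0.00587). Its retrocopy Prps1l3, which holds 10.1% of the distinct 50-base words of the longest Prps1 transcript, ran from 38.4 to 39.4 CPM over WT, against 56.5, 64.5 and 38.3 CPM across the fusion libraries. Reads of the shared stretch could have been divided between them, so the value of either gene is uncertain to that extent. Of the 6 libraries, the expected count of Prps1 was not a whole number in 1, DNAJ-PKAc C, at 258.64.

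Gart, Paics, Adsl and Atic act in that order along the purine ring pathway. Gart (chromosome 16, 91621395 to 91646972) makes a protein with 3 enzyme activities of the early pathway. Gart measured 69.4, 64.7 and 59.6 CPM across WT libraries A to C, against 93.2, 93.2 and 33.998 CPM across the fusion libraries, the largest coefficient of variation within the fusion line among the 10 genes. DNAJ-PKAc A stood 2.74-fold above C, more than either library's fold distance from the WT mean. The log2 difference of 0.19 (SE 0.36, adjusted p = 0.786) took the other sign without DNAJ-PKAc A or B and became 0.53 (SE 0.13, adjusted p = 0.0282) without DNAJ-PKAc C.

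Paics (chromosome 5, 76951302 to 76967509), whose product carries out a carboxylation and the ligation after it, had another order of libraries than its neighbours in the pathway. Paics measured 341, 236 and 362 CPM across WT libraries A to C, against 444, 485 and 599.7 CPM across the fusion libraries. Every DNAJ-PKAc library was above every WT library, and DNAJ-PKAc C, the lowest fusion library for the other 9 genes, was the highest here. The fold was 1.63 (log2 0.70, SE 0.22), and the difference missed the threshold (adjusted p = 0.136). It missed it without DNAJ-PKAc C too (log2 0.57, adjusted p = 0.0825) and passed without both WT B and DNAJ-PKAc C, a choice made after the values were seen (log2 0.36, adjusted p = 0.00542). The groups did not overlap for 2 of the 10 genes, Paics and Uck2, and for 28.9% of all genes tested (15.8% with the fusion line higher, as here, and 13.1% with it lower).

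Paics lies head to head with Ppat, the gene of the amidotransferase that opens the purine pathway with nitrogen from glutamine. In RefSeq these genes, on opposite strands, overlap by 277 bases, at 76951302 to 76951578. Ppat measured 27.3, 23.8 and 27.6 CPM across WT libraries A to C, against 59.98, 63.4 and 34.9 CPM across the fusion libraries. In DNAJ-PKAc A and B it was thus 2.29-fold and 2.42-fold above the WT mean, and in C 1.33-fold, while Paics went from 1.42-fold and 1.55-fold to 1.92-fold. The ratio of Paics to Ppat counts was 12.5, 9.92 and 13.1 in WT, 7.40 and 7.66 in DNAJ-PKAc A and B, and 17.2 in C. DNAJ-PKAc A and B lay below the WT range and C above it, and no difference between genotypes was detectable (2-sided exact permutation test on log2 ratios, p = 0.7, adjusted over 2 ratios 0.7, with 0.1 the smallest p that 3 against 3 allows). With the strand setting of the counting unstated, reads from the overlap could have been assigned to either gene.

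**Figure D3:**
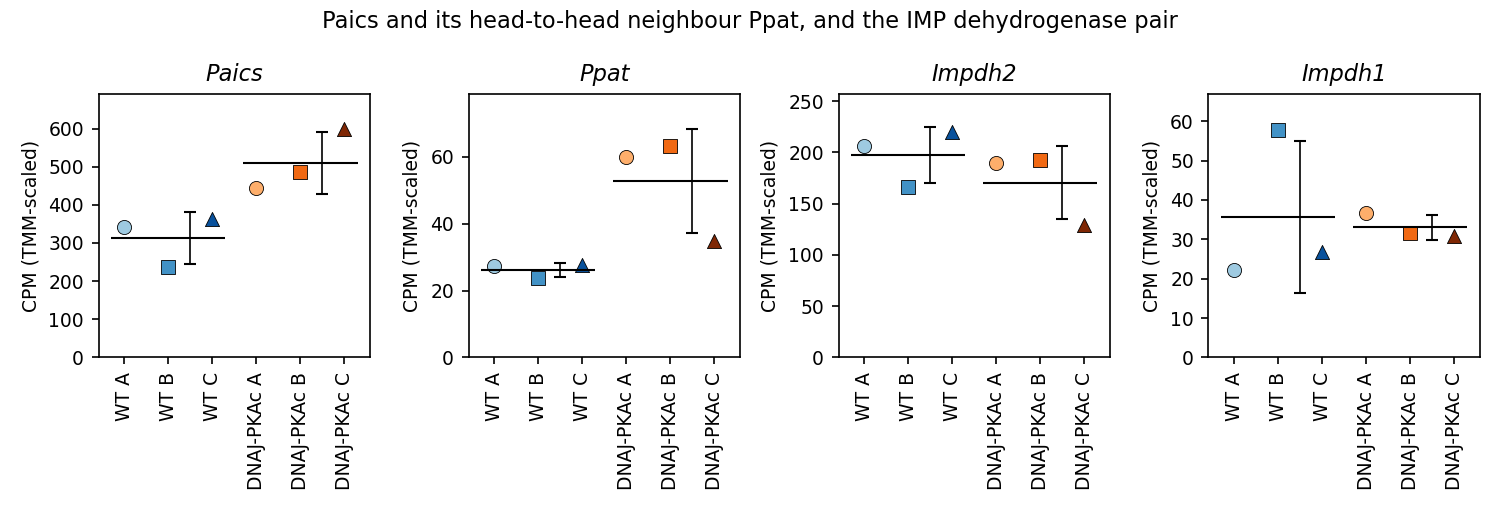
TMM-scaled CPM of Paics, Ppat, Impdh2 and Impdh1 in each library, with the mean of each genotype as a horizontal line and 1 SD (n = 3) as a bar. DNAJ-PKAc C is the highest library for Paics at 599.7 CPM and the lowest fusion library for Ppat at 34.9 CPM, and WT B is the highest library for Impdh1 at 57.8 CPM.

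Adsl (chromosome 15, 80948490 to 80970947), the lyase that serves both the ring pathway and the AMP branch, measured 125, 98.1 and 105 CPM across WT libraries A to C, against 130.5, 139.8 and 72.0 CPM across the fusion libraries. The log2 difference was 0.06 (SE 0.26, adjusted p = 0.907), and its sign was not stable: it was negative with upper-quartile scaling and without WT B, DNAJ-PKAc A or DNAJ-PKAc B. Atic (chromosome 1, 71557156 to 71579403) makes the enzyme that closes the ring to IMP. Atic measured 141, 139 and 121 CPM across WT libraries A to C, against 131, 139.8 and 79.9 CPM across the fusion libraries. DNAJ-PKAc A and B were inside the WT range, and C was 1.68-fold below the WT mean. The 95% interval of the log2 difference ran from -0.74 to 0.34 (estimate -0.20, adjusted p = 0.631).

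Impdh1 and Impdh2 encode the IMP dehydrogenases, the enzymes that commit IMP to guanine nucleotides. Impdh2 (chromosome 9, 108560436 to 108565577), usually the form of dividing cells, measured 206, 166 and 219 CPM across WT libraries A to C, against 189.6, 193 and 129 CPM across the fusion libraries. DNAJ-PKAc A and B were inside the WT range, and C was below it (log2 difference -0.21, SE 0.21, adjusted p = 0.571). Its pseudogene Impdh2-ps, which is not among the symbols of the table, holds 73.9% of the 50-base words of the longest Impdh2 transcript, so the count of Impdh2 is uncertain. Impdh1 (chromosome 6, 29200436 to 29216364) measured 22.2, 57.8 and 26.8 CPM across WT libraries A to C, against 36.7, 31.5 and 30.8 CPM across the fusion libraries. WT B alone was high, and the other 2 WT libraries were below all 3 DNAJ-PKAc libraries. With all libraries the log2 difference was -0.11 (SE 0.36, adjusted p = 0.876), and without WT B it was 0.39 (adjusted p = 0.325). Without both WT B and DNAJ-PKAc C, a choice made after the values were seen, it was 0.43 (adjusted p = 0.0186). Rn45s and Malat1, the latter at 10856 CPM in WT B against 2033 and 2505 CPM in WT A and C, were also highest in WT B, and their part in the Impdh1 value was not tested. The ratio of Impdh2 to Impdh1 counts was 9.27, 2.88 and 8.18 in WT and 5.16, 6.11 and 4.19 in DNAJ-PKAc (exact permutation test, p = 0.7, adjusted 0.7).

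Paics, Atic and Impdh2 were the 3 of the 9 members with a RefSeq promoter window that held the E-box CACGTG, the word bound by MYC and related factors, which are known regulators of nucleotide synthesis genes. Windows ran from 250 bases before to 50 bases after the RefSeq start, and both strands were searched. The word was in 7.15% of all 32851 windows and in at least 1 window of 12.2% of the tested genes that had one. No other motif searched overlapped it. The stretches around it are shown 5′ to 3′ on the gene's strand (plus for all 3), with the E-box in capitals, so that the word can be set beside the values of its 3 holders.
Paics, chr5:76951087-76951116: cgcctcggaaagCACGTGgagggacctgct
Atic, chr1:71557137-71557166: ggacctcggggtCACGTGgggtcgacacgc
Impdh2, chr9:108560314-108560343: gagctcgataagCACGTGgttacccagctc

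The E-box began 203 bases before the RefSeq start of Paics, 7 before that of Atic and 110 before that of Impdh2. In GENCODE all 30 printed bases of Paics lie in a UTR of Ppat, all 30 of Impdh2 in a UTR of Impdh2, and 17 of the 30 of Atic in a UTR of Atic, so these stretches may be transcribed. Of its 3 holders, Paics was above WT in every fusion library, and Atic and Impdh2 were within the WT range in fusion libraries A and B and under it in C. Myc itself measured 58.8, 84.6 and 51.6 CPM across WT libraries, against 66.7, 53.4 and 42.2 CPM across the fusion libraries (log2 -0.26, adjusted p = 0.558). A match of letters does not show binding.

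On the pyrimidine side, Dhodh (chromosome 8, 109593244 to 109608699) makes dihydroorotate dehydrogenase, which sits in the inner mitochondrial membrane and passes electrons to ubiquinone. Dhodh measured 10.96, 10.3 and 13.0 CPM across WT libraries A to C, against 19.6, 19.8 and 9.87 CPM across the fusion libraries. DNAJ-PKAc A and B were above all WT libraries and C just below them. The log2 difference was 0.52 (SE 0.30, adjusted p = 0.341) with all libraries and 0.79 (SE 0.18, adjusted p = 0.022) without DNAJ-PKAc C.

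Umps (chromosome 16, 33954782 to 33967038) makes UMP synthase, which joins orotate to PRPP and decarboxylates the product. Umps measured 52.7, 44.7 and 45.3 CPM across WT libraries A to C, against 82.6, 83.98 and 34.1 CPM across the fusion libraries. As for Dhodh, both A and B of the fusion line were above all WT libraries and C below them, and A stood 2.42-fold above C. The log2 difference was 0.49 (SE 0.33, adjusted p = 0.407) with all libraries and 0.81 (SE 0.14, adjusted p = 0.00801) without DNAJ-PKAc C.

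Umps was also the 1 member of 9 whose window held the full cyclic AMP response element TGACGTCA, the word bound by CREB, a substrate of protein kinase A. The word lay at bases 4 to 11 after the RefSeq start. It was in 1.79% of all windows and in 3.88% of tested genes with a window. The stretch from the first base of the window to the end of the word is shown, minus strand, with the word in capitals, because CREB is a known target of the kinase in the fusion.
Umps, chr16:33967028-33967288: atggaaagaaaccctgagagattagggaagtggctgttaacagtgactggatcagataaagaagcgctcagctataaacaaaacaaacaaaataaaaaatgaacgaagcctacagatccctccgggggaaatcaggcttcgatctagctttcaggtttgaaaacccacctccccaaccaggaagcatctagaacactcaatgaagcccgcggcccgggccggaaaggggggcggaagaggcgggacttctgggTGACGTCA

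Fusion libraries A and B held 1.74-fold and 1.77-fold the WT mean of Umps, C was below every WT library, and nothing about binding follows from the match. Of the other words searched, GGGCGG was in windows of all 9 members (71.7% of tested genes), CCAAT in 6 (43.7%), CCGGAAG in 2, Prps1 and Gart (21.8%), TATAAA in 2, Impdh2 and Umps (8.3%), and TTTNGCGC (3.06%) and GCGCATG (8.63%) in 0.

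Uck2 (chromosome 1, 167222895 to 167285933), which phosphorylates uridine and cytidine, had the smallest adjusted p of the 10 genes. Uck2 measured 67.3, 62.7 and 69.9 CPM across WT libraries A to C, against 105, 105 and 91.03 CPM across the fusion libraries. The groups did not overlap, and DNAJ-PKAc C was the lowest fusion library but well above WT. The fold was 1.51 (log2 0.59, SE 0.14), short of the threshold in edgeR (adjusted p = 0.0809) and past it in DESeq2 (adjusted p = 0.0291) and, in edgeR, without DNAJ-PKAc C (log2 0.66, adjusted p = 0.0116). Uck2 had the smallest coefficient of variation within DNAJ-PKAc, 8.14%, and Gart had the largest, 46.5%. In WT the coefficient of variation ran from 3.76% for Prps1 to 54.3% for Impdh1.

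Per kilobase of the longest GENCODE transcript, Paics was the most abundant of the 10 genes in WT (126 ± 27.2 CPM per kilobase, SD, n = 3), followed by Impdh2 (106 ± 14.9), Atic (47.1 ± 3.97) and Adsl (29.5 ± 3.79). Then came Gart (18.3 ± 1.39), Prps1 (17.7 ± 0.666), Uck2 (14.1 ± 0.772), Impdh1 (13.7 ± 7.43), Umps (13.6 ± 1.28) and Dhodh (2.999 ± 0.377). The WT libraries of neighbours overlapped for Paics and Impdh2, Gart and Prps1, Uck2 and Impdh1, and Impdh1 and Umps, so those orders were not resolved. In DNAJ-PKAc the first 4 genes and the last kept their places, with Paics at 205 ± 32.5 and Dhodh at 4.31 ± 1.49 CPM per kilobase. Together the 10 genes took 0.0879% to 0.1102% of counts in WT libraries, 0.131% and 0.135% in DNAJ-PKAc A and B, and 0.108% in C. Paics weighed heavily in the sum for C, with 4921 counts there against 3109, 2023 and 3279 in WT A to C. In C 7 of the 10 genes lay below every WT library.

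The enzymes of the same pathways that do take nitrogen from glutamine had a median above the WT mean in all 3 fusion libraries. Over these 6 genes it was 0.49 in DNAJ-PKAc A, 0.63 in B and 0.25 in C, and 4 of them, Ppat, Gmps, Ctps and Ctps2, had groups that did not overlap, all with the fusion line higher, against 15.8% of genes tested. By edgeR 0 of 6 rose or fell over 3 against 3 (4 at an unadjusted p under 0.05), DESeq2 called Ppat and Ctps higher, and limma-voom called 0. Without DNAJ-PKAc C 3, Ppat, Gmps and Ctps, rose by edgeR, against 14.3% of genes tested. CTP synthetase, Ctps, measured 124, 102 and 99.1 CPM across WT libraries, against 178, 191 and 165 CPM across the fusion libraries (log2 0.71, SE 0.16, adjusted p = 0.0604). GMP synthetase, Gmps, ran from 155 to 166 CPM over WT, against 231, 259.7 and 171 CPM across the fusion libraries (adjusted p = 0.218). Ctps2, a second CTP synthetase gene, had DNAJ-PKAc C as its highest library, as Paics did (90.3, 97.9 and 121 CPM, against 59.7 to 89.6 CPM in WT). Pfas (log2 0.18, adjusted p = 0.783) and Cad (0.03, 0.949) were lowest in DNAJ-PKAc C and, like Impdh1, high in WT B, with Cad at 223 CPM there and at 136 and 138 CPM in WT A and C. The difference between these 6 genes and the 10 was not tested.

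Further along the pathways, 9 genes that make deoxynucleotides were all above 0 (median log2 0.88), with 0 rising or falling by edgeR (2 at an unadjusted p under 0.05), 1, Rrm1, higher by DESeq2 (adjusted p = 0.0332) and 0 called by limma-voom. The list median was 1.25 in A, 1.36 in B and -0.39 in C of the fusion line. Rrm1, a subunit of ribonucleotide reductase, measured 42.7, 47.03 and 52.55 CPM across WT libraries, against 179, 188 and 43.3 CPM across the fusion libraries. Tyms, the thymidylate synthase gene, read 30.8 CPM in fusion library A, against 6.09 CPM in C. Without DNAJ-PKAc C 7 of the 9 rose by edgeR, against 14.3% of genes tested. Among other PRPP and AMP branch genes 0 of 6 were called by edgeR (1 at an unadjusted p under 0.05), and 0 by DESeq2 or limma-voom. Prps2, a second PRPP synthetase gene, had groups that did not overlap (49.5 to 67.3 CPM in WT and 69.1 to 89.4 in DNAJ-PKAc, adjusted p = 0.205), and Adss, which leads IMP towards AMP, was at log2 0.20 (0.517).

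Among 16 salvage genes 1 rose and 0 fell by edgeR (5 at an unadjusted p under 0.05): Adk, adenosine kinase, went from 62.9, 43.6 and 57.8 CPM over WT libraries to 105, 120.2 and 116 CPM over the fusion libraries (fold 2.08, log2 1.05, SE 0.18, adjusted p = 0.0284). The call was lost when any 1 library but DNAJ-PKAc C was left out (adjusted p of 0.0569 to 0.121) and with the replicate block (0.0801). Pnp, purine nucleoside phosphorylase, was at log2 1.14 (adjusted p = 0.0555 by edgeR, 0.0472 with no filter on low counts and 0.00397 by DESeq2). Mtap, which recovers adenine from methylthioadenosine, was at -1.26 (0.176 by edgeR and 0.0456 by DESeq2). It measured 109, 126 and 34.1 CPM across fusion libraries A to C, against 183 to 231 CPM in WT. Tk1, the thymidine kinase of S phase, was at 47.8, 47.5 and 2.32 CPM across fusion libraries A to C. Among 13 nucleotide kinases 0 rose and 1 fell by edgeR, DESeq2 and limma-voom alike, Cmpk2, a mitochondrial kinase gene that is also interferon-induced. It went from 25.6, 24.7 and 16.6 CPM to 3.17, 3.46 and 1.22 CPM (log2 -3.08, SE 0.40, adjusted p = 0.0125), and leaving out WT A, WT B or DNAJ-PKAc A gave an adjusted p of 0.0608, 0.0583 or 0.0564. Nme1, a nucleoside diphosphate kinase gene, was at 166, 168 and 61.4 CPM in DNAJ-PKAc against 75.4 to 107 CPM in WT. Of 10 breakdown genes tested 0 were called by edgeR (4 at an unadjusted p under 0.05) and 0 by limma-voom, while DESeq2 called 3 lower, Nt5e, Ampd3 and Nt5c. By edgeR Nt5e was at log2 -1.70 (adjusted p = 0.0544, but 0.048 with RLE and 0.0452 with upper-quartile factors) and Ampd3 at -1.15 (0.0827).

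Of 11 folate genes that supply the formyl groups used by the Gart and Atic proteins, 0 were called by edgeR, DESeq2 or limma-voom (1 at an unadjusted p under 0.05 by edgeR), with a median log2 difference of 0.16. Mthfd1 was at 112, 112 and 33.1 CPM across fusion libraries A to C against 42.4 to 58.1 CPM in WT, again with C below WT. Of 12 genes of ubiquinone synthesis and of regulators, 0 were called by edgeR, DESeq2 or limma-voom (1, Coq7, at an unadjusted p under 0.05 by edgeR). Coq7, which acts in making the electron acceptor of the Dhodh enzyme, was at 6.90 to 7.62 CPM over WT, against 14.4, 14.3 and 8.04 CPM across the fusion libraries (adjusted p = 0.186).

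Most cell cycle genes divided the fusion libraries around WT in the way that 5 of the 10 genes did (Prps1, Gart, Adsl, Dhodh and Umps). All 22 of a cell cycle list were above every WT library in DNAJ-PKAc A and B, against 32.5% of genes tested. In C 20 were below every WT library, against 29.5%. Over the list the median was 1.86 in A, 1.94 in B and -1.26 in C of the fusion line. Mki67, a marker of cycling cells, was at 107 to 155 CPM over WT, against 468, 474 and 36.2 CPM across the fusion libraries, and Pcna was at 52.0 to 85.4 and at 217, 226 and 51.5 CPM. By edgeR 0 of the 22 rose or fell with all libraries (8 at an unadjusted p under 0.05), DESeq2 called 3 higher, Cdk1, Bub1b and Ccne1, and limma-voom called 0. Without DNAJ-PKAc C 22 rose by edgeR, against 14.3% of genes tested. Paics, Uck2, Ppat, Gmps, Ctps, Ctps2, Prps2, Adk, Pnp and Coq7 were above every WT library in DNAJ-PKAc C as well. So was Ccne1 of the cell cycle list, at 9.63 CPM there against 6.89 to 8.17 CPM in WT. These genes were picked after their values were seen, and the naming is not complete, as Ak1 and Mthfsd were such genes too. Over all genes tested, 15.8% had all 3 DNAJ-PKAc libraries above all 3 WT libraries. The part of proliferation in the values of the 10 genes was not tested. Of 6 mesenchymal genes tested 1 rose by edgeR, Acta2 (adjusted p = 0.0102; lost without any 1 WT library, at 0.0527 to 0.0569), and the other 5 were below 0. Without DNAJ-PKAc C 1 of the 6 rose (14.3% of genes tested) and 4 fell (11%), with a median log2 difference of -1.06. Col3a1 was at 1000.1, 952 and 4890 CPM across fusion libraries A to C.

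**Figure D4:**
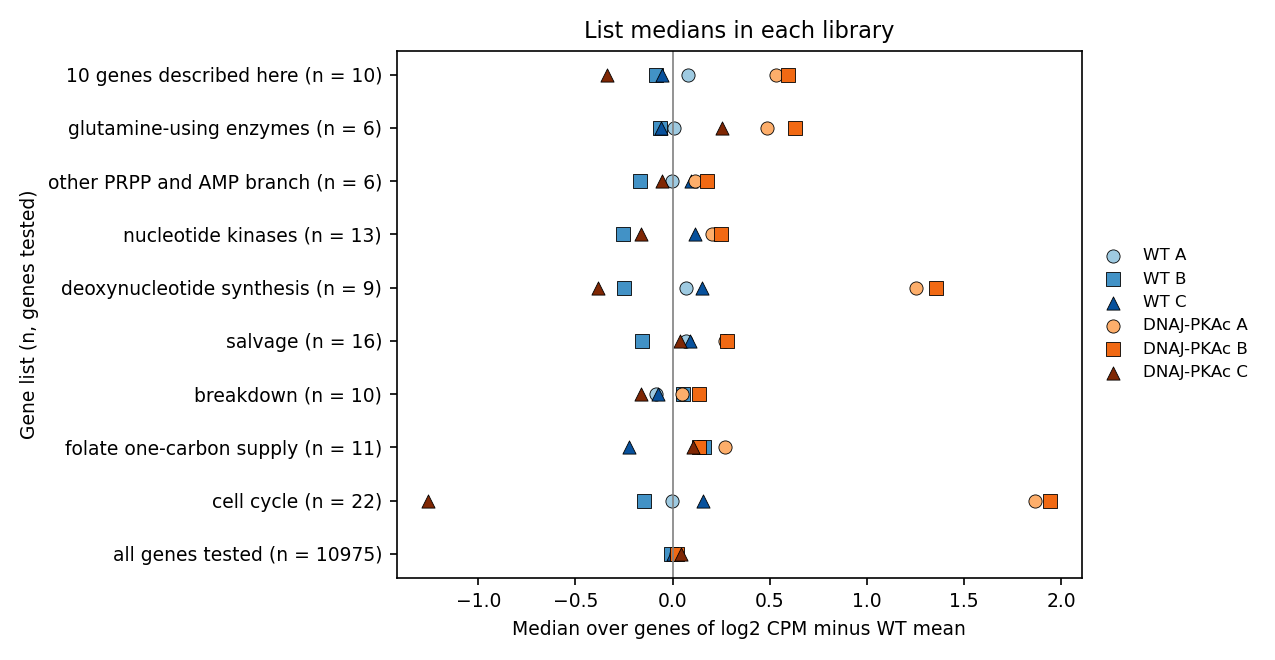
Median over the genes of each list of log2 CPM minus the WT mean, 1 point per library, with the number of genes tested in brackets. In DNAJ-PKAc A and B the 10 genes lie between the median of all genes and the deoxynucleotide and cell cycle lists, and DNAJ-PKAc C lies at -0.34 for the 10 genes, -0.39 for deoxynucleotide synthesis, -1.26 for cell cycle and 0.25 for the glutamine-using enzymes.

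The genes whose pattern over the 6 libraries was nearest to the mean profile of the 10 came from other pathways. Nearness was the root mean square difference between centred log2 CPM profiles, over 8824 genes of at least 10 CPM. Prelid1, a mitochondrial lipid transfer gene, was nearest at 0.026, followed by Smyd5 (0.043), Immt (0.043), which organises the mitochondrial cristae, Iars2 (0.055), the mitochondrial isoleucyl-tRNA synthetase gene, and Tubgcp4 (0.058). Among the 10 genes themselves, Adsl (0.16), Prps1 (0.17) and Dhodh (0.18) were nearest to their shared mean, and Paics (0.47) and Impdh1 (0.48) were farthest. Set among the 8824 genes, all from outside the 10, Adsl would rank only 584, Prps1 663 and Dhodh 833, with Paics at 5955 and Impdh1 at 6076. The mean profile includes each of the 10, and these values describe 6 libraries of shared source.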

How the data were processed

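Total RNA of 6 libraries was measured, 3 per genotype, grouped by genotype. The values are unnormalized expected counts for each gene symbol, as the authors deposited them. STAR 2.5.2b, RSEM 1.3.0 and mm10 appear in the submitters' processing notes, with no role stated, and the kit was stranded, per the labels' protocols. The annotation used and the strand setting of the counting were not given in the sources used here.

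Expected counts were rounded. filterByExpr (minimum count 10) kept 10975 genes, and TMM scaled the libraries. A robust quasi-likelihood model with genotype as its term was fitted in edgeR 4.0.16 (R 4.3.3). P-values are 2-sided, with Benjamini-Hochberg adjustment over all genes tested and a threshold of 0.05. SE is the log2 difference over the root of the F statistic. CPM are TMM-scaled, and log2 CPM uses a prior count of 2. The fit was tested on simulated counts. The members and lists were chosen with earlier results of these data known. The rule named all members, the glutamine-using enzymes, every call, in other lists the 2 genes of smallest adjusted p and up to 2 of largest difference, and the genes nearest in pattern. Not every result under the rule is reported here. Vim, Des, Lrat, Alb, Hnf4a and Cdh5 were chosen after their values were seen. Alternatives used DESeq2 1.42.0, limma 3.58.1, other scalings, filters and thresholds, the replicate block, and libraries left out. Positions and promoters are from RefSeq (GRCm38.p6, the mm10 assembly); 9 of the 10 members had a promoter entry. Lengths and shared 50-base words are from GENCODE transcripts.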

Additional observations from a re-analysis of the deposited data

How the results depend on the processing

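The count of called genes, 385 with all libraries, was 974 with DESeq2, 199 with the replicate block, 72 at a threshold of 0.01, 77 to 2808 with 1 library left out, and 5336 without both WT B and DNAJ-PKAc C, a choice made after the data were seen. Of the 10 genes 0 were called higher, but 1 with DESeq2, beside 348 of the 10975 genes tested. With 1 library left out it was 0 to 5, the 5 beside 14.3% of genes tested. Without both of those libraries it was 7, beside 2633 of 11012 genes called higher. None of the 10 was called lower under any alternative run. With the replicate block 0 of the 10 were called. Same-letter libraries correlated in their deviations at 0.21 (A), -0.20 (B) and 0.03 (C), and not every library correlated best with its own letter, so the letters were not taken as pairs. Some log2 differences changed sign. With 1 library left out, Gart ran from -0.017 to 0.53, Adsl from -0.11 to 0.31, Atic from -0.34 to 0.014, Impdh1 from -0.36 to 0.39, Pfas from -0.031 to 0.48, Cad from -0.088 to 0.27 and Col1a2 from -1.02 to 0.10. Adsl was -0.013 with upper-quartile factors. Impdh1 was 0.024 with limma-voom, 0.017 with the replicate block and 0.43 without both WT B and DNAJ-PKAc C, where Myc was 0.079. Cad was -0.0033 with RLE factors, -0.020 with upper-quartile factors and -0.0033 with DESeq2. The cause was not tested. Prps1, Paics, Impdh2, Dhodh, Umps and Uck2 kept their sign under all 17 alternatives. The number of libraries limits precision: the 95% interval of Gart ran from -0.67 to 1.05.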
